A study of Mus musculus with 24 samples.

Results

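The insulin-like growth factor genes were followed through the brains of tumour-bearing and control mice. The set held 10 genes, chosen by symbol from the 47643 rows of the deposited expression table: the ligands Igf1 and Igf2, the receptor genes Igf1r and Insr, and the binding protein genes Igfbp2, Igfbp3, Igfbp4, Igfbp5, Igfbp6 and Igfbp7. Males of the strain C57BL/6J, 4 months old, gave 3 brain regions: neocortex, cerebellum and hippocampus. The LLC groups were injected with LLC cells, an abbreviation the labels do not spell out, and the tissue was taken about 3 weeks later. The control groups were mock-injected. The title of the series speaks of cachexia caused by melanoma. Each of the 6 groups of a region and a treatment held 4 libraries, 24 in all. The titles number the LLC libraries 1 to 4 and the controls 14 to 17.

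The IGF system is a set of secreted ligands, cell surface receptors and secreted binding proteins. IGF1 and IGF2 bind the receptor tyrosine kinase IGF1R, and insulin and IGF2 also bind the insulin receptor INSR; both receptors signal through insulin receptor substrates to the PI3 kinase and AKT pathway and to the RAS and MAP kinase pathway. Binding proteins hold the ligands in extracellular fluid, prolong their life and limit or direct their access to the receptors, and IGFBP7 binds IGFs only weakly and is known as a protein of blood vessel walls. In the adult brain Igf2 and Igfbp2 are known as genes of the choroid plexus and the meninges, and low circulating IGF1 is a known feature of wasting and poor nutrition.

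Values were TPM, a transcript abundance scaled by transcript length and by the library total. The number of reads is not known from TPM. The libraries held 14368 to 14847 genes at 1 TPM or more, and no 2 libraries were identical. The labelled regions carried their own neuronal markers: the 8 cerebellar genes (Gabra6, Pcp2 and others) summed to 3199 to 6363 TPM in cerebellum and at most 121 TPM elsewhere, and the lowest of these cerebellar sums was that of cerebellum LLC replicate 1. Biological replicates are named in the labels, without a word on whether libraries of 1 number came from the same animal, so p-values measure the spread between these libraries, which may be in part technical. LLC libraries held more haemoglobin RNA than controls, 0.261% to 1.55% of TPM against 0.0727% to 0.162%, with LLC replicate 4 the lowest LLC library in every region. Because each library is bulk tissue, fewer cells of a type and less RNA per cell cannot be told apart.

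All 10 genes passed the expression filter, a mean of at least 1 TPM, in every region. LLC and control libraries were compared with limma on log2(TPM + 1), with two-sided p-values adjusted by Benjamini and Hochberg over all genes tested and a threshold of 0.05. In neocortex 4 of the 10 rose (Igfbp7, Igfbp3, Igfbp4 and Insr) and 2 fell (Igfbp2 and Igfbp5). Of all genes tested there, 5.59% were called higher and 2.95% lower. In cerebellum 2 rose (Igfbp7 and Igfbp3) and none fell, against 1.23% of all genes called higher and 1.27% lower. At an unadjusted p under 0.05, limma gave 4 higher and 1 lower of the 10, against 24.4% of all genes in either direction. In hippocampus 1 rose (Igfbp7) and none fell, against 2.58% higher and 1.03% lower. Unadjusted, 2 were higher and 0 lower, a share close to the 22.2% of all genes. The median difference of the 10 genes was 0.24, 0.08 and 0.09 on the log2 scale in neocortex, cerebellum and hippocampus, and that of all genes 0.01, -0.04 and 0.01.

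**Figure D1:**
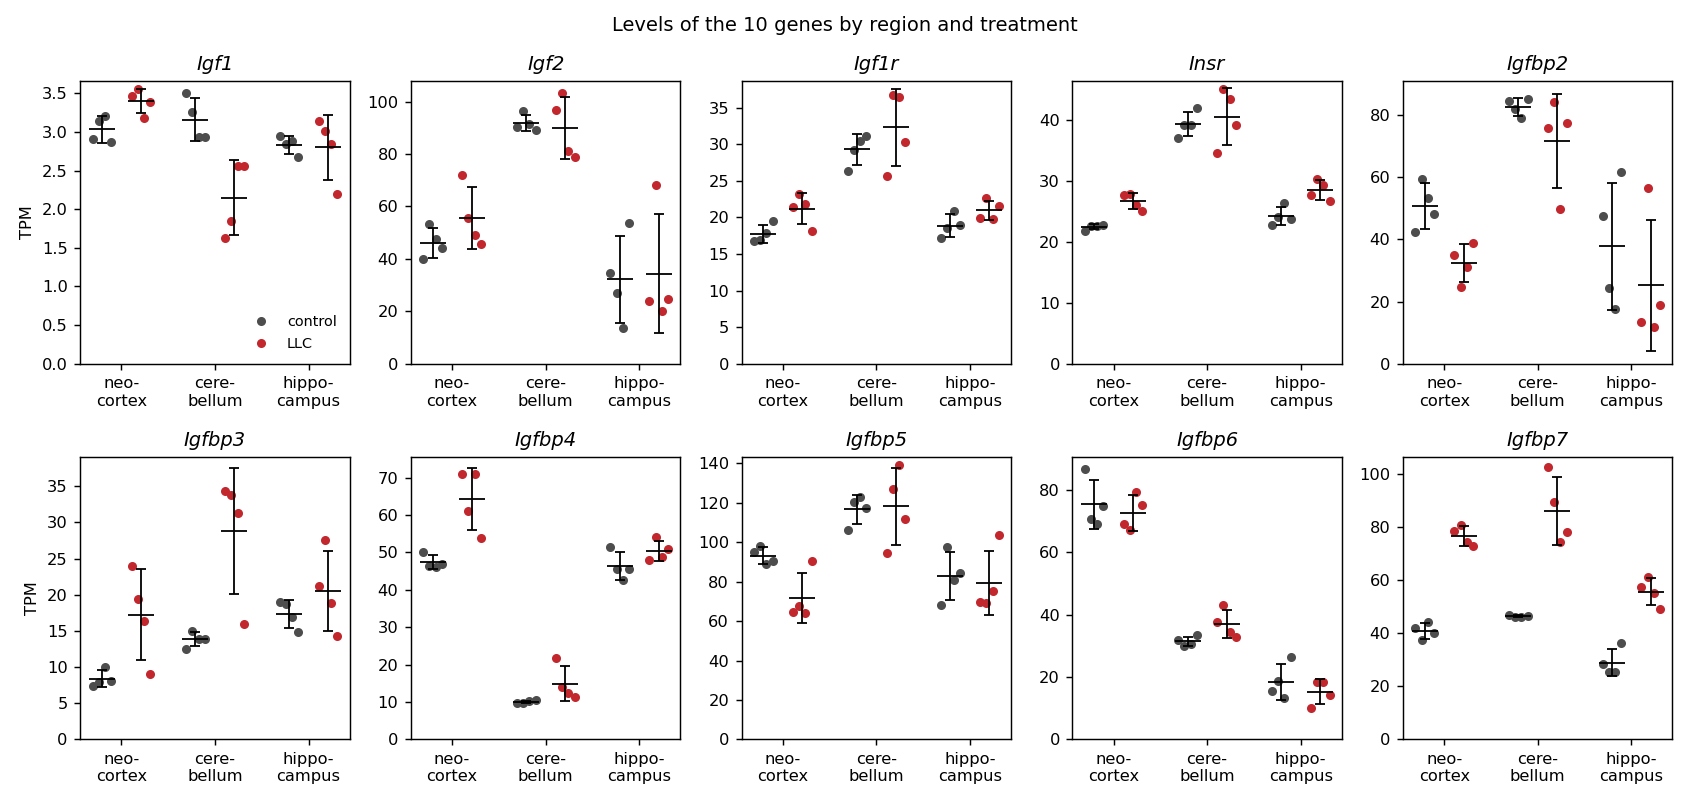
TPM of the 10 genes in neocortex, cerebellum and hippocampus, controls in grey and LLC in red, 1 point per library, with the mean (horizontal line) and SD (bars) of 4 libraries. The 4 LLC values of Igfbp7 lie above the 4 control values in every region, and those of Igf2 and Igfbp2 in hippocampus range from 11.96 to 68.3 TPM.

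The averages over the regions were tested as well, taking for each title number the mean of log2(TPM + 1) over its 3 libraries, whether or not these came from 1 animal. There 3 of the 10 genes rose, Igfbp7, Igfbp4 and Igfbp3, and none fell, against 7.66% of all genes called higher and 5.45% lower. Unadjusted, 5 were higher and 1 lower, against 32.9% of all genes. For these 3 binding protein genes the 250 bases before the annotated start are shown, since they are the members whose RNA rose in the average over regions. They are RefSeq sequences on GRCm38.p6, read 5′ to 3′ on the gene's strand and ending at the base before the start. Igfbp7 lies on chr5:77408046-77408295, minus strand, Igfbp3 on chr11:7213924-7214173, minus strand, and Igfbp4 on chr11:99040994-99041243, plus strand. Capitals mark matches to 6 motifs searched on both strands. The STAT motif was searched as TTCNNNGAA and the C/EBP motif as TTGCGCAA. The forkhead motif was searched with the letters TGTTTAC, while the element bound by the glucocorticoid receptor was searched with the letters AGAACA, the core of the hypoxia response element with the letters ACGTG, and the TATA box of basal promoters with the letters TATAAA. No motif holds another.
Igfbp7: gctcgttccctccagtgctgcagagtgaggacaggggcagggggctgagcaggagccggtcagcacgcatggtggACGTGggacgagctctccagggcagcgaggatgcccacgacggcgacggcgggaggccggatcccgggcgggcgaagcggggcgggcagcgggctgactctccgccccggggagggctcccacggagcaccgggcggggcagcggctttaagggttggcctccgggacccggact
Igfbp3: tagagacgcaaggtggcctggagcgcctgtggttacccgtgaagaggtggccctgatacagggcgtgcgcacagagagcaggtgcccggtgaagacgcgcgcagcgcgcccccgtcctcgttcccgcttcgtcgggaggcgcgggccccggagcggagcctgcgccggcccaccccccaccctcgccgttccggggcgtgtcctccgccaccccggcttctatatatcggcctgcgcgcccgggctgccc
Igfbp4: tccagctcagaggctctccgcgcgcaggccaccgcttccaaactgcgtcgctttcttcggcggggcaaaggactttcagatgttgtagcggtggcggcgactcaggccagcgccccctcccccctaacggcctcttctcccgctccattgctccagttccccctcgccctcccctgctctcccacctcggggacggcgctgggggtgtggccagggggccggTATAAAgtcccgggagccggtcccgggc

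The window of Igfbp7 held 1 match, ACGTG, at positions -175 to -171 counted from the start, and 16.6% of the 32851 mouse promoter windows of this length held that motif. The window of Igfbp4 held 1 match, TATAAA, at positions -28 to -23, a motif found in 12.4% of all windows. The window of Igfbp3 held none of the 6 motifs as searched. For the TATA box only the letters TATAAA were searched, so other letters, such as tatatat near the end of that window, were not marked. The STAT, forkhead, glucocorticoid receptor and C/EBP motifs, with matches in 7.02%, 3.17%, 16.1% and 0.164% of all windows, had no match in these 3, which says only that those letters are not in these windows. All 3 windows were rich in G and C, at 74% for Igfbp7, 73.2% for Igfbp3 and 69.2% for Igfbp4 against a median of 52.4% over all windows. They held 26, 32 and 22 CpG dinucleotides against a median of 6. None of the 6 motifs was found in more than 1 of the 3 windows.

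Igfbp7, which encodes a secreted protein of the vessel wall with weak affinity for IGFs, rose in all 3 regions. The gene lies on chromosome 5, 77349240 to 77408041 on mm10 (GENCODE M21, minus strand). In neocortex its level was 41.9, 37.3, 44.1 and 40.2 TPM in the controls and 78.4, 80.9, 74.3 and 72.9 TPM in the LLC libraries. Cerebellum gave 47.0, 46.2, 45.9 and 46.5 TPM in the controls and 102, 89.3, 74.4 and 77.9 TPM in the LLC libraries. Hippocampus gave 28.6, 25.5, 25.3 and 36.4 TPM in the controls and 57.3, 61.2, 55.1 and 49.2 TPM in the LLC libraries. Every LLC library was above every control of its region, and the lowest LLC value in any region, 49.2 TPM in hippocampus, was also above the highest control value of any region, 47.0 TPM. The log2 difference was 0.89 ± 0.06 (SE) in neocortex with a limma adjusted p of 4.07e-05. It was 0.87 ± 0.09 in cerebellum, adjusted p = 0.00821, and 0.93 ± 0.11 in hippocampus, adjusted p = 0.00735. The 3 differences correspond to factors of 1.86, 1.82 and 1.91 on the scale of TPM + 1. Averaged over regions the difference was 0.90 ± 0.06, adjusted p = 0.000188. With each library left out in turn the call was kept in 8 of 8 fits in neocortex, 8 of 8 in hippocampus and 7 of 8 in cerebellum, where it was lost without control replicate 16 at an adjusted p of 0.0548. The last 85 bases of the gene overlap Polr2b, a subunit gene of RNA polymerase II on the other strand, and the sources used here do not say whether counting used strand. Polr2b itself differed by 0.04, -0.10 and 0.02 on the log2 scale in the 3 regions, with adjusted p-values of 0.530, 0.569 and 0.880.

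Igfbp3 encodes the main carrier of IGFs in the circulation. Its gene lies on chromosome 11, 7206086 to 7213923, minus strand. In neocortex its level was 7.33, 7.998, 10.1 and 8.12 TPM in the controls and 23.9, 19.5, 16.4 and 8.99 TPM in LLC replicates 1 to 4. In cerebellum it was 12.5, 15.01, 13.9 and 13.9 TPM in the controls and 34.4, 33.8, 31.3 and 15.9 TPM in the LLC libraries. LLC replicate 4 stood apart from the other LLC libraries in both regions: it lay inside the control range in neocortex and just above it in cerebellum. The rise was 0.89 ± 0.23 in neocortex, adjusted p = 0.0444, and 0.95 ± 0.21 in cerebellum, adjusted p = 0.0494. In hippocampus the controls held 14.9 to 19.04 TPM and the LLC libraries 14.3 to 27.6 TPM, with a difference of 0.20 ± 0.16 that did not pass, adjusted p = 0.519. Over the region average the difference was 0.68 ± 0.18, adjusted p = 0.0403. The neocortex call was lost without any 1 of control replicates 14 to 17 or LLC replicates 1 to 3 and kept without LLC replicate 4, with adjusted p-values from 0.000208 to 0.118 over the 8 fits. It was also lost with no expression filter (0.0867), quantile scaling (0.0531) and robust eBayes (0.0671), and with the description number of the libraries as a replicate block. In cerebellum it was lost without any 1 of the 4 controls, LLC replicate 2 or LLC replicate 3, with adjusted p-values from 0.000192 to 0.154, and with no filter (0.0892), a pseudocount of 0.1 (0.0503) and robust eBayes (0.0503). The region average kept its call only without LLC replicate 4, with adjusted p-values from 7.14e-05 to 0.0980 when replicate 14, 15, 16 or 17 of the controls or 1, 2, 3 or 4 of the LLC libraries was left out. That call was also lost with no filter and with robust eBayes.

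Igfbp4 encodes a binding protein known mainly as an inhibitor of IGF action, cleaved by the protease PAPP-A. It lies on chromosome 11, 99041244 to 99054392, plus strand. In neocortex the controls held 50.1, 46.4, 46.2 and 46.9 TPM and the LLC libraries 70.9, 61.1, 70.9 and 53.8 TPM. All LLC libraries were above all controls, and the rise was 0.42 ± 0.08, adjusted p = 0.0186. In cerebellum the level was far lower, 9.72, 9.67, 10.3 and 10.4 TPM in the controls and 21.8, 14.1, 12.3 and 11.4 TPM in the LLC libraries. The groups did not overlap there either, with LLC replicate 1 far above the others. That library also stood apart in neuronal markers: 8 neocortical genes summed to 123 TPM in it and to 34.3 to 67.2 TPM in the other cerebellum libraries, and the cerebellar genes to 3199 TPM against 5615 to 6363 TPM. Their part in its Igfbp4 level was not tested. The difference of 0.49 ± 0.17 did not pass, adjusted p = 0.120. Without that library the difference was 0.30 and passed by a margin lost in rounding, adjusted p = 0.050, and in 1 fit of all 24 libraries it passed at 0.00894. In hippocampus the groups overlapped, at 42.5 to 51.5 TPM in the controls and 48.1 to 54.1 TPM in the LLC libraries, with a difference of 0.12 ± 0.06, adjusted p = 0.287. The region average rose by 0.34 ± 0.07, adjusted p = 0.0182. The neocortex call was lost without control replicate 15, 16 or 17 or LLC replicate 1 or 2, with a highest adjusted p of 0.0635. It was also lost in 1 limma fit of all 24 libraries, at an adjusted p of 0.0503. The region average lost its call without control replicate 15 or 16 or LLC replicate 2, with a highest adjusted p of 0.0649.

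Igfbp2 and Igfbp5 fell in neocortex. The genes lie next to each other on chromosome 1, at 72824503 to 72852474 on the plus strand and 72857932 to 72874884 on the minus strand, 5457 bases apart. IGFBP2 is a major binding protein of cerebrospinal fluid, and IGFBP5 is a binding protein made by neurons and muscle among other tissues. Igfbp2 stood at 42.3, 59.4, 53.3 and 48.2 TPM in the neocortex controls and at 35.0, 24.7, 31.1 and 38.9 TPM in the LLC libraries. All 4 LLC libraries were below all controls, and the difference was -0.64 ± 0.13, adjusted p = 0.0234. Igfbp5 stood at 94.8, 98.3, 89.0 and 90.7 TPM in the neocortex controls and at 64.6, 67.6, 64.2 and 90.6 TPM in the LLC libraries. LLC replicate 4 again lay within the control range, the other 3 LLC libraries were well below it, and the difference was -0.39 ± 0.10, adjusted p = 0.0404. The call of Igfbp2 was lost without control replicate 15, 16 or 17 or LLC replicate 1, 2 or 3, with adjusted p-values up to 0.0765. That of Igfbp5 was lost without any 1 of the 4 controls or LLC replicates 1 to 3, with adjusted p-values up to 0.121. Both calls were lost with no filter (adjusted p = 0.0553 and 0.0778) and in 1 fit of all 24 libraries (0.325 and 0.0914). They were also lost with the description number of the libraries as a replicate block.

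Neither gene passed in the other regions. In cerebellum Igfbp2 ranged over 78.9 to 85.1 TPM in the controls and 49.7 to 84.1 TPM in the LLC libraries, a difference of -0.23 ± 0.14, adjusted p = 0.345. Igfbp5 ranged there over 106 to 123 TPM in the controls and 94.3 to 139 TPM in the LLC libraries, a difference of 0.00 ± 0.11, adjusted p = 0.985. The hippocampal values of Igfbp2 spread widely, and its difference of -0.68 ± 0.50, adjusted p = 0.454, was as large as the one called in neocortex but had a standard error several times larger. Igfbp5 ranged in hippocampus over 68.2 to 97.7 TPM in the controls and 69.3 to 103 TPM in the LLC libraries, a difference of -0.07 ± 0.14, adjusted p = 0.813.

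Igfbp6, a binding protein that prefers IGF2 and lies on chromosome 15, 102144362 to 102149511 on the plus strand, did not pass in any region. Neocortex held 69.1 to 86.7 TPM in the controls and 67.0 to 79.4 TPM in the LLC libraries, a difference of -0.05 ± 0.08, adjusted p = 0.696. Cerebellum held 30.01 to 33.4 TPM and 32.8 to 43.1 TPM, a difference of 0.22 ± 0.09, adjusted p = 0.160. Hippocampus held 13.1 to 26.3 TPM and 9.998 to 18.5 TPM, a difference of -0.25 ± 0.22, adjusted p = 0.561. The LLC and control values overlapped in all 3 regions.

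**Figure D2:**
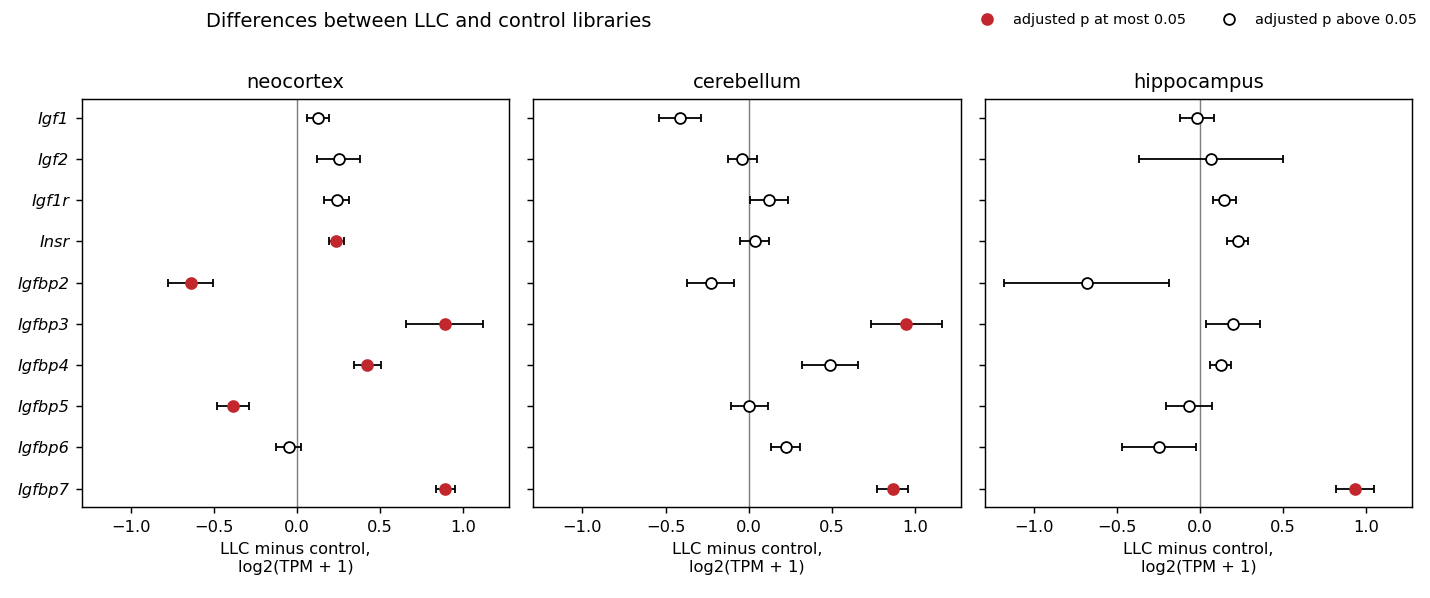
Difference between 4 LLC and 4 control libraries on the log2(TPM + 1) scale (horizontal axis) for each of the 10 genes (vertical axis) in 3 regions, with SE bars from limma and filled points where the adjusted p is at most 0.05. Igfbp7 stands near 0.9 in every panel, and Igfbp2 in hippocampus has the widest bar, ± 0.50.

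The ligand gene Igf1, on chromosome 10, 87858265 to 87937042, plus strand, was low in brain, at 1.62 to 3.56 TPM over all 24 libraries. In cerebellum its level was 3.51, 3.26, 2.94 and 2.93 TPM in the controls and 1.62, 1.84, 2.56 and 2.55 TPM in the LLC libraries. Every LLC library was below every control, but the difference of -0.41 ± 0.13 did not pass, adjusted p = 0.0948. It passed without LLC replicate 4, at 0.0494, and in 1 fit of all 24 libraries, at 0.00495. In neocortex the values were 2.91, 3.14, 3.21 and 2.86 TPM in the controls and 3.47, 3.56, 3.18 and 3.38 TPM in the LLC libraries, which overlapped, with a difference of 0.13 ± 0.07, adjusted p = 0.230. In hippocampus they were 2.67 to 2.94 TPM and 2.20 to 3.14 TPM, a difference of -0.02 ± 0.10, adjusted p = 0.930. Library totals being fixed in TPM, all of these are shares of the RNA measured.

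Igf2, the other ligand gene, is imprinted and lies on chromosome 7, 142650766 to 142666816, minus strand. Its level was 39.9 to 53.3 TPM in neocortex controls and 45.6 to 72.0 TPM in LLC libraries, a difference of 0.25 ± 0.13, adjusted p = 0.229. In cerebellum it was 89.2 to 96.5 TPM and 78.7 to 103 TPM, a difference of -0.04 ± 0.09, adjusted p = 0.820. In hippocampus it was 13.5 to 53.6 TPM and 20.3 to 68.3 TPM, a difference of 0.07 ± 0.43, adjusted p = 0.946. The groups overlapped in every region. Igf2os, annotated on the other strand within Igf2, reached at most 0.797 TPM. Gm49394, annotated as protein coding on the same strand, shares 16048 bases with Igf2 and has no TPM value here. Its part in the assignment of reads was not tested.

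The receptor gene Insr, on chromosome 8, 3122061 to 3279617, minus strand, rose in neocortex. Its level there was 21.9, 22.6, 22.6 and 22.9 TPM in the controls and 27.7, 27.9, 26.2 and 25.1 TPM in the LLC libraries. The groups did not overlap, and the difference was 0.24 ± 0.04, adjusted p = 0.0183. Hippocampus gave 22.8, 24.1, 26.4 and 23.8 TPM in the controls and 27.8, 30.4, 29.3 and 26.7 TPM in the LLC libraries, which did not overlap either, but the difference of 0.23 ± 0.06 did not pass, adjusted p = 0.0711, and passed without hippocampus LLC replicate 4, at 0.0316, and with library weights, at 0.0281. In cerebellum the controls held 37.2 to 42.0 TPM and the LLC libraries 34.6 to 45.1 TPM, a difference of 0.04 ± 0.09, adjusted p = 0.823. The neocortex call was lost without control replicate 15 or 16 or LLC replicate 1 or 2, with adjusted p-values up to 0.0664.

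Igf1r, the receptor gene for both IGFs, on chromosome 7, 67952827 to 68233668, plus strand, did not pass in any region. Neocortex held 16.8 to 19.5 TPM in the controls and 18.2 to 23.2 TPM in the LLC libraries, a difference of 0.24 ± 0.08 with an adjusted p of 0.0710. It passed without neocortex LLC replicate 4, at 0.00489. Hippocampus held 17.2 to 20.9 TPM and 19.8 to 22.6 TPM, a difference of 0.15 ± 0.07, adjusted p = 0.255. Cerebellum held 26.4 to 31.1 TPM and 25.7 to 36.7 TPM, a difference of 0.12 ± 0.11, adjusted p = 0.525. The ratio of Insr to Igf1r TPM had means of 1.27 to 1.37 in the 6 groups.

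Counting libraries rather than applying the model, the LLC and control groups did not overlap for 4 of the 10 genes in neocortex, 4 in cerebellum and 2 in hippocampus. Over all genes tested the shares without overlap were 17%, 16.7% and 13.8%. In neocortex the 4 were Insr, Igfbp4 and Igfbp7, with LLC above, and Igfbp2, with LLC below. In cerebellum they were Igfbp3, Igfbp4 and Igfbp7, with LLC above, and Igf1, with LLC below. In hippocampus they were Insr and Igfbp7, with LLC above.

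Whether a gene's LLC difference itself varied between regions was tested by interaction contrasts in 1 limma fit of all 24 libraries. None of the 10 genes passed in any of the 3 contrasts. For cerebellum against neocortex 0.612% of all genes passed, for hippocampus against neocortex 0%, and for hippocampus against cerebellum 0.128%. At an unadjusted p under 0.05 the 3 contrasts held 3, 1 and 3 of the 10 genes, and 1885, 296 and 1841 of all genes tested. Igf1 gave the smallest p of the set: its difference in cerebellum was 0.54 ± 0.13 lower on the log2 scale than that in neocortex, a contrast of -0.54 with an unadjusted p of 0.000582 and an adjusted p of 0.0627. That contrast passed without cerebellum LLC replicate 3, at an adjusted p of 0.0302, without cerebellum LLC replicate 4, at 0.0209, and without hippocampus LLC replicate 4, at 0.0449. For Igfbp3 the contrast of hippocampus against neocortex was -0.69 ± 0.33, unadjusted p = 0.0474 and adjusted p = 1.00. A rise called in 1 region and not in another is therefore not shown to differ between regions for any of these genes.

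Control levels differed between regions for most of the set. In a limma fit of the 12 controls, 8 of the 10 genes differed between cerebellum and neocortex, 3 between hippocampus and neocortex and 9 between hippocampus and cerebellum. The shares over all genes were 84.6%, 61.5% and 83%, so most genes differ between these tissues. The median gene was itself shifted by 0.30, 0.08 and -0.23 on the log2 scale in these 3 comparisons, and the differences given next are relative to that median. The count for hippocampus against neocortex was 6 without hippocampus control 14 and 5 without hippocampus control 17. With the title number as a replicate block the 3 counts were 8, 5 and 9.

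Igfbp4 had the widest gap of the 10 genes between cerebellum and the other regions. Its control mean was 47.4 ± 1.83 TPM (SD, n = 4) in neocortex, 46.3 ± 3.74 TPM in hippocampus and 10.02 ± 0.379 TPM in cerebellum. Relative to the median gene it was lower in cerebellum than in neocortex by -2.44 (-2.13 ± 0.05 before the shift, adjusted p = 9.79e-14), while hippocampus and neocortex did not differ by the test, adjusted p = 0.597. Igfbp6 ran from 75.3 ± 7.95 TPM in neocortex through 31.4 ± 1.503 TPM in cerebellum to 18.4 ± 5.75 TPM in hippocampus. Relative to the median gene it was lower than in neocortex by -1.53 in cerebellum and -2.10 in hippocampus, with adjusted p-values of 2.57e-06 and 6.52e-08.

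Igfbp3 was lowest in neocortex, at 8.38 ± 1.17 TPM, against 13.9 ± 1.01 TPM in cerebellum and 17.4 ± 1.91 TPM in hippocampus. Relative to the median gene it was higher than in neocortex by 0.37 in cerebellum and 0.89 in hippocampus, with adjusted p-values of 9.67e-06 and 7.31e-07. Igfbp7 had control means of 46.4 ± 0.470 TPM in cerebellum, 40.9 ± 2.902 TPM in neocortex and 28.9 ± 5.21 TPM in hippocampus. The first 2 did not differ by the test, adjusted p = 0.0761, and hippocampus was lower than neocortex by -0.58 relative to the median gene, adjusted p = 0.000316.

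The receptor genes shared 1 pattern. Insr stood at 39.4 ± 1.98 TPM in cerebellum, 24.3 ± 1.51 TPM in hippocampus and 22.5 ± 0.428 TPM in neocortex. Igf1r stood at 29.3 ± 2.08, 18.9 ± 1.53 and 17.7 ± 1.25 TPM in the same order. Both were higher in cerebellum than in neocortex, by 0.48 for Insr and 0.39 for Igf1r relative to the median gene, with adjusted p-values of 1.68e-09 and 2.42e-07. Neither differed between hippocampus and neocortex by the test, at adjusted p-values of 0.0759 and 0.297.

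Igf2 and Igfbp2 were highest in cerebellum, at 91.9 ± 3.21 and 82.6 ± 2.82 TPM. Neocortex held 46.2 ± 5.66 TPM of Igf2 and 50.8 ± 7.30 TPM of Igfbp2, and hippocampus 32.2 ± 16.7 and 37.8 ± 20.4 TPM. Relative to the median gene, cerebellum was higher than neocortex by 0.68 for Igf2, adjusted p = 0.00410, and by 0.40 for Igfbp2, adjusted p = 0.0315. The Igfbp2 call was lost without control replicate 14, 15 or 17 of cerebellum or 14 or 17 of neocortex, with adjusted p-values of 0.0529 to 0.0788, and with median-ratio scaling, at 0.241. Igfbp5 had control means of 117 ± 7.496 TPM in cerebellum, 93.2 ± 4.17 TPM in neocortex and 82.8 ± 12.1 TPM in hippocampus. Its difference of 0.32 between cerebellum and neocortex, adjusted p = 0.00262, fell to 0.02 relative to the median gene and turned to -0.0064, adjusted p = 0.941, when libraries were scaled by median ratios. Igf1 did not differ between any regions by the test, with control means of 3.03 ± 0.169 TPM in neocortex, 3.16 ± 0.280 TPM in cerebellum and 2.83 ± 0.118 TPM in hippocampus.

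Igf2 and Igfbp2 varied together with genes of the choroid plexus, the secretory epithelium of the ventricles. A list of 12 choroid plexus genes (Ttr, Kl, Folr1 and others) summed to 2611, 109, 56.6 and 4150 TPM in hippocampus controls 14 to 17. Igf2 stood at 34.7, 26.8, 13.5 and 53.6 TPM and Igfbp2 at 47.5, 24.4, 17.7 and 61.7 TPM in those same libraries. In hippocampus LLC replicates 1 to 4 the list summed to 64.2, 7526, 57.8 and 128 TPM. Igf2 stood at 24.1, 68.3, 20.3 and 24.5 TPM there and Igfbp2 at 13.6, 56.6, 11.96 and 18.97 TPM. In each treatment group the library with the highest choroid plexus sum was also the highest in both genes, and the library with the lowest sum was the lowest in both. None of the 12 list genes passed between LLC and control in any region by limma (0, 3 and 0 at an unadjusted p under 0.05 in neocortex, cerebellum and hippocampus). None was at 0 in all 4 libraries of any group, and the part of these genes in the hippocampal spread was not tested.

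In neocortex the choroid plexus list summed to 285 to 1866 TPM in the controls and 659 to 2335 TPM in the LLC libraries. LLC replicates 1 and 3, with sums of 2148 and 2335 TPM, above every control, held 35.0 and 31.1 TPM of Igfbp2, below every control. Igf2 in those 2 libraries was 72.0 and 49.1 TPM. The choroid plexus sums of the 2 groups thus overlapped where Igfbp2 did not. The fibroblast list, with 1 of 11 tested genes higher and none lower, summed to 114 to 129 TPM in the controls and 102 to 165 TPM in the LLC libraries. Cerebellum held the highest choroid plexus sums among the controls, 4467 to 5361 TPM, and also the highest control means of Igf2 and Igfbp2.

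**Figure D3:**
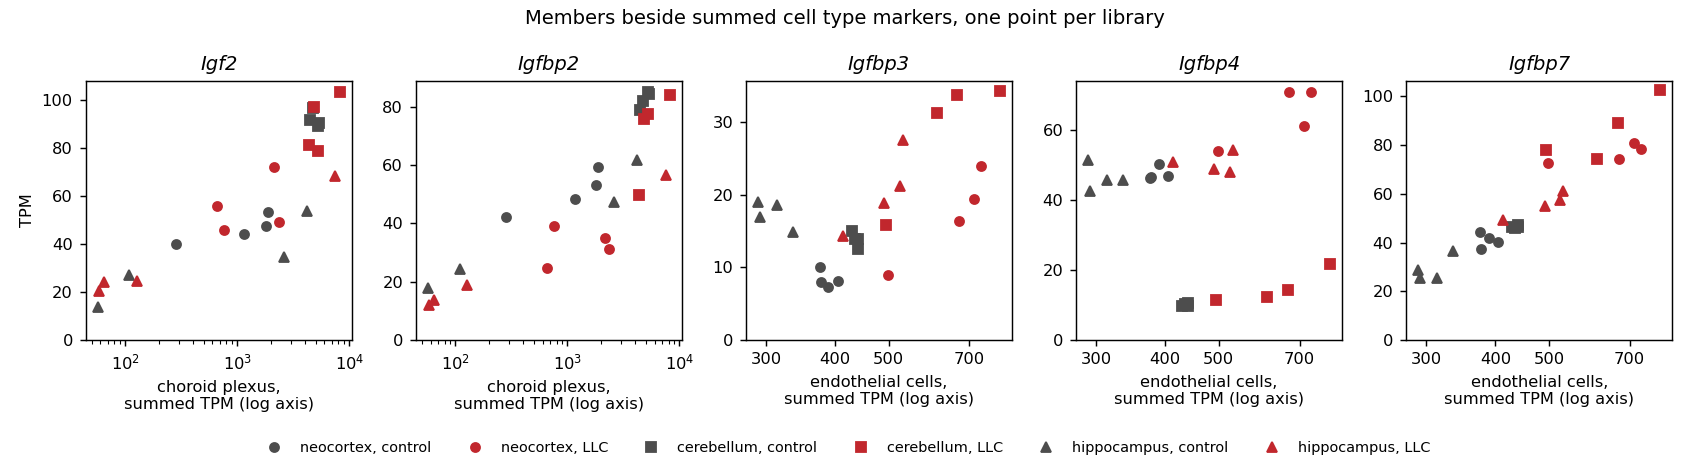
TPM of Igf2 and Igfbp2 against the summed TPM of 12 choroid plexus genes, and of Igfbp3, Igfbp4 and Igfbp7 against that of 14 endothelial genes (horizontal axes are logarithmic), 1 point per library, with region by symbol and treatment by colour. Hippocampus libraries span choroid plexus sums from 56.6 to 7526 TPM, and every LLC library lies above the controls of its region in the endothelial sum.

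The 3 binding protein genes that rose in the region average were set beside markers of blood vessels. After subtraction of each group's mean, Igfbp3, Igfbp4 and Igfbp7 followed the endothelial list over 24 libraries at Pearson coefficients of 0.78, 0.74 and 0.63. In the 8 hippocampus libraries they gave 0.65, 0.18 and 0.61. Igfbp3 followed the erythrocyte list as closely over 24 libraries (0.78), and Igfbp7 followed the choroid plexus list more closely in hippocampus (0.76). So did Igfbp4 there, with the choroid plexus list (0.72) and the fibroblast list (0.57). Over 24 libraries Igfbp4 also moved against the cerebellar neuron list (-0.76). Of 14 endothelial genes, 12 in neocortex, 2 in cerebellum and 9 in hippocampus were called higher and none lower. Their sum ran over 376 to 404 TPM in neocortex controls and 498 to 735 TPM in LLC libraries, over 429 to 440 and 494 to 795 TPM in cerebellum, and over 290 to 335 and 413 to 530 TPM in hippocampus. Of 11 mural cell genes, 6, 1 and 3 were called higher. None of the 14 endothelial or 11 mural genes was at 0 in all 4 libraries of any group. Cldn5, a tight junction gene of brain endothelium, rose by 0.65 ± 0.12 in neocortex, adjusted p = 0.0183, and by 0.61 ± 0.11 in hippocampus, adjusted p = 0.0246. Its cerebellar difference of 0.49 ± 0.14 did not pass, adjusted p = 0.0885.

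Among the 4 LLC libraries of each region, Igfbp3 ranked as the endothelial sums did. In neocortex the sums were 735, 713, 670 and 498 TPM in LLC replicates 1 to 4, and Igfbp3 stood at 23.9, 19.5, 16.4 and 8.99 TPM. In cerebellum they were 795, 666, 612 and 494 TPM, with Igfbp3 at 34.4, 33.8, 31.3 and 15.9 TPM. In hippocampus they were 524, 530, 491 and 413 TPM, with Igfbp3 at 21.2, 27.6, 18.9 and 14.3 TPM. LLC replicate 4 was lowest in both quantities in each region. Igfbp7 ranked as the sums in hippocampus but not in neocortex or cerebellum, and Igfbp4 in cerebellum but not in neocortex or hippocampus. Igfbp7 stayed above every control in LLC replicate 4, whose endothelial sums also exceeded those of every control of the region.

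The levels are also given per 100 TPM of the endothelial sum, a ratio added after the values had been seen and described without a test. Igfbp7 was 9.88 to 11.7 in neocortex controls and 10.7 to 14.6 in LLC libraries, which overlap. It was 10.6 to 10.8 in cerebellum controls and 12.2 to 15.8 in LLC libraries, and 8.12 to 10.9 in hippocampus controls and 10.95 to 11.9 in LLC libraries, with LLC above in both. Igfbp4 was 11.6 to 12.9 in neocortex controls and 8.58 to 10.8 in LLC libraries, and 13.6 to 17.8 and 9.19 to 12.3 in hippocampus, with LLC below in both, whereas the cerebellar ranges of 2.21 to 2.37 and 2.02 to 2.74 overlap. Igfbp3 was 1.88 to 2.68 in neocortex controls and 1.80 to 3.25 in LLC libraries, 2.85 to 3.50 and 3.22 to 5.11 in cerebellum, and 4.44 to 6.57 and 3.47 to 5.20 in hippocampus, and the ranges overlap in each region. The part of endothelial RNA in the LLC differences was not tested.

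Some neuron and oligodendrocyte genes were lower in neocortex, where Igfbp2 and Igfbp5 fell. Of 9 neuron genes 4 were called lower there and none higher, with sums of 4323 to 4453 TPM in the controls and 3808 to 4282 TPM in the LLC libraries. Of 9 oligodendrocyte genes 3 were called lower and none higher, with sums of 2627 to 2825 and 2345 to 2555 TPM. Of 9 astrocyte genes 2 were called higher and 1 lower in neocortex. Group means were subtracted to compare Igfbp5 and Igfbp2 with these lists over 24 libraries. Igfbp5 gave Pearson coefficients of -0.03 with the neuron list, 0.10 with the oligodendrocyte list and 0.63 with the astrocyte list. Igfbp2 gave 0.10, 0.09 and -0.03 in the same order. By limma none of 8 inhibitory neuron genes was called in neocortex, with 3 higher and 0 lower at an unadjusted p under 0.05. None of 8 neocortical neuron genes was called there either, with 1 higher and 1 lower unadjusted. Hippocampus, where neither Igfbp2 nor Igfbp5 passed, had 1 neuron gene called higher and 2 lower. Its neuron sums were 3676 to 3894 TPM in the controls and 3433 to 3580 TPM in the LLC libraries. In cerebellum limma called no neuron or oligodendrocyte gene, with 1 of each list lower at an unadjusted p under 0.05. Blood cell markers also moved with LLC. All tested erythrocyte genes were called higher, 6 of 6 in neocortex, 7 of 7 in cerebellum and 5 of 5 in hippocampus. Each region also had 4 neutrophil genes called higher. The neutrophil list summed to at most 18.9 TPM in any control and at least 31.4 TPM in any LLC library. Genes of microglia, cells known to make Igf1, were called in neither direction in any region (0 of 9 by limma each time). At an unadjusted p under 0.05, 6, 2 and 3 of them were lower in neocortex, cerebellum and hippocampus and 0 were higher. Their sum in cerebellum, where Igf1 was lower in every LLC library, was 176 to 189 TPM in the controls and 146 to 185 TPM in the LLC libraries. With group means subtracted, Igf1 moved against the microglia list. The Pearson coefficient was -0.31 over 24 libraries and -0.77 in the 8 hippocampus libraries. The part of these cells in the results was not tested.

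Summed over the 6 binding protein genes, the level was 316 ± 6.79 TPM in neocortex controls and 335 ± 9.63 TPM in LLC libraries, 301 ± 6.51 and 357 ± 28.3 TPM in cerebellum, and 232 ± 29.8 and 247 ± 30.03 TPM in hippocampus. The share of Igfbp7 in that sum was 12.9 ± 1.03% in neocortex controls and 22.9 ± 1.66% in LLC libraries. In cerebellum it was 15.4 ± 0.469% and 24.1 ± 2.71%, and in hippocampus 12.5 ± 1.04% and 22.8 ± 2.896%. The shares of Igfbp7 did not overlap between the groups in any region. Igfbp5 was the largest component in every control group, at 29.5% in neocortex, 38.7% in cerebellum and 36.1% in hippocampus. In LLC neocortex its share of 21.4 ± 3.61% was below that of Igfbp7. The share of Igfbp2 was 16.1 ± 2.33% in neocortex controls and 9.66 ± 1.59% in LLC libraries. These shares restate the levels above and were not tested again.

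**Figure D4:**
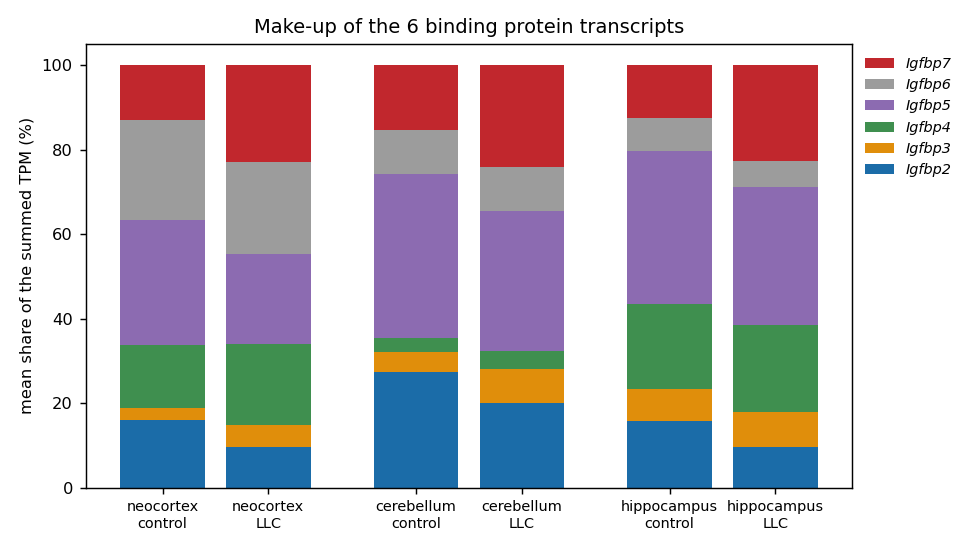
Mean share, in percent, of each of the 6 binding protein genes in their summed TPM for the 6 groups, as stacked bars that add to 100. The share of Igfbp7 is 12.9%, 15.4% and 12.5% in the control bars of neocortex, cerebellum and hippocampus and 22.9%, 24.1% and 22.8% in the LLC bars.

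Other genes of the pathway were read from 3 lists. Of 12 further genes of the extracellular and surface part of the IGF system, 7 could be tested in neocortex and hippocampus and 8 in cerebellum. Only Htra1, a secreted protease known to cleave IGFBP5, was called, and it rose by 0.23 ± 0.05 in neocortex, adjusted p = 0.0195, and by 0.23 ± 0.04 in hippocampus, adjusted p = 0.0305. Its control means were 119 ± 3.52 TPM in neocortex and 114 ± 4.96 TPM in hippocampus, and its LLC means 140 ± 7.92 and 134 ± 4.79 TPM. Cerebellum gave a difference of 0.18 ± 0.09, adjusted p = 0.250. The median difference of this list was -0.01, 0.06 and 0.01 in neocortex, cerebellum and hippocampus.

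Of 28 intracellular genes of insulin and IGF signalling, 27 were tested in each region. In neocortex 1 was called, Rheb, the GTPase that activates mTORC1, which fell by 0.17 on the log2 scale (SE 0.04), adjusted p = 0.0271. By limma none was called in cerebellum or hippocampus, although at an unadjusted p under 0.05 cerebellum had 4 higher and 3 lower and hippocampus 4 higher and 0 lower. In the region average Akt1, a kinase downstream of both receptors, rose by 0.12 ± 0.03, adjusted p = 0.0352, and Sos1, an exchange factor for RAS, fell, with a difference of -0.19 ± 0.05, adjusted p = 0.0350. With 1 of 27 called in each direction, the count is too small to set apart from the shares of all genes in that comparison, 7.66% higher and 5.45% lower. The median difference of the list was 0.02, -0.08 and 0.04 in the 3 regions. Among 4 genes of the Igf2 mRNA-binding proteins and the Igf2 locus, at most 1 passed the expression filter in a region and none was called. Igfbp1, singled out after its values were seen because it lies 3539 bases from Igfbp3, averaged 0.732 ± 0.178 TPM in cerebellum controls and 1.65 ± 0.852 TPM in LLC libraries, a difference that did not pass, adjusted p = 0.120, and was under 0.2 TPM in each neocortex and hippocampus library.

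After subtraction of each group's mean, the genes whose log2(TPM + 1) followed each member most closely over the 24 libraries were searched among 13524 genes. The values are Pearson coefficients given as a description, since the libraries share numbers, tissue blocks and scaling. Igf2 was closest to Slc13a4 (0.95), Cgnl1 (0.93) and Dab2 (0.93), and Igfbp2 to Rdh5 (0.96), Kcnj13 (0.94) and Ttr (0.93). Ttr and Kcnj13 are on the choroid plexus list and Slc13a4 on the fibroblast list. Igfbp3 was closest to Sparc (0.90), Vwf (0.88) and Ddit4 (0.88), and Igfbp4 to Gmpr (0.90), Slc35f2 (0.88) and Htr3a (0.86). For Igfbp7 the nearest genes were Ccm2l (0.81), Trbc2 (0.80) and Rpl41 (0.75). Igf1r had Ctdsp2 (0.94), Map3k3 (0.90) and Rbl2 (0.90), and Insr had Ankhd1 (0.94), Akap9 (0.94) and Rc3h1 (0.93). Igf1 had Itfg1 (0.85), Nop58 (0.82) and Mcur1 (0.79), Igfbp5 had Adamts15 (0.83), Hes5 (0.81) and Mcm5 (0.81), and Igfbp6 had Igfn1 (0.85), Rassf3 (0.83) and Pdzrn3 (0.82). Among the 45 pairs of members, Igf2 with Igfbp2 (0.89) and Igf1r with Insr (0.86) were the closest.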

How the data were processed

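Per the labels' protocols, Trizol-extracted RNA was made into libraries with the stranded TruSeq mRNA kit and read on a NovaSeq 6000. The authors deposited a single table with 47643 symbols and 24 libraries, in TPM, each library summing to 1000000. The submitters' processing notes name mm10 as the build. Aligner, counter and annotation: not given in the sources used here. Depth is unknown, so no count test was run, and the 4 libraries per group limit the precision. Groups came from the titles.

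Each region was fitted with limma 3.58.1 in R 4.3.3 (lmFit, and eBayes with a trend). The fit used log2 of TPM plus 1 for genes averaging 1 TPM or more, with Benjamini-Hochberg adjustment over all genes tested. Differences on this scale understate those of low genes. The code was tested on simulated data. Averages, shares and figures were made with Python 3.11.15 and matplotlib 3.10.9. Coordinates are from GENCODE M21. Promoters were found for 9 of the 10 genes in RefSeq (GRCm38.p6).

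The members, gene lists, cell type markers and tests were chosen with earlier results of these data known. All 10 members are named in every comparison. Other pathway genes are named where called, at most 4 per list and comparison, and the 3 genes most like each member by Pearson correlation over the 24 libraries. Alternatives were library weights, robust eBayes, a pseudocount of 0.1, quantile scaling, median-ratio scaling, a filter at 5 TPM or no filter, 1 fit of all libraries, replicate blocks, and leaving out each library. Same-numbered control libraries of cerebellum and neocortex deviated together (4 of 4 correlations over 0.1, at 0.114 to 0.263). The ranges were 0.0775 to 0.227 for hippocampus and cerebellum and -0.0624 to 0.156 for hippocampus and neocortex. Libraries of different numbers were not compared, so these values do not settle whether title numbers are pairs, which the labels do not state. With the title number as a replicate block 8 of the 10 genes were called between control cerebellum and neocortex, as without it.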

Additional observations from a re-analysis of the deposited data

Results flagged for a closer look

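In each of the 60 combinations of a gene and a group of 4 libraries, the gap between the highest or lowest library and its nearest neighbour was compared with the range of the group. In 5 of them it was above Dixon's 95% critical value, and chance alone gives about 1 in 20. Hippocampus LLC replicate 2 was far above the other LLC libraries in Igf2, at 68.3 TPM, and in Igfbp2, at 56.6 TPM, and it was also the library with the highest choroid plexus sum, 7526 TPM. Cerebellum LLC replicate 4 was far below the others in Igfbp3, at 15.9 TPM. Neocortex LLC replicate 4 was far above the others in Igfbp5, at 90.6 TPM. Neocortex control replicate 14 was above the other controls in Igfbp4, at 50.1 TPM.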

How the results depend on the processing

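Igfbp7 kept its direction and its call under the 9 other settings in each region and the 8 of the region average, and when libraries were left out, except in cerebellum without control replicate 16 (adjusted p = 0.0548). Single values were recomputed for all 10 genes in the 3 regional LLC comparisons. In the region average and the control comparisons they covered only genes called in the main fit. In the interactions they covered Igf1 in the contrasts with cerebellum and Igfbp3 for hippocampus against neocortex. Of these 1049 values 943 kept direction and side of the threshold, 72 lost a call, 19 gained one and 15 changed sign. Calls gained or signs changed by other genes were not counted. Genes called in neocortex (6 of the 10) numbered 3 with no filter, 3 with the description number as a replicate block, 3 with all 24 libraries in 1 fit, and 1 to 7 with a library left out. In cerebellum (2) they numbered 1 with a pseudocount of 0.1, 1 with no filter, 1 with robust eBayes, 7 with library weights, 4 with all libraries in 1 fit, and 0 to 3 with a library left out. In hippocampus (1) they numbered 2 with library weights and 1 to 2 with a library left out, and in the region average (3) 6 with library weights, 5 with the replicate block and 1 to 5 with a library left out. For control hippocampus against neocortex (3) they numbered 5 with median-ratio scaling, 5 with quantile scaling, 5 with the title number as a replicate block, and 3 to 6 with a library left out. For control cerebellum against neocortex (8) and hippocampus against cerebellum (9) the left-out fits gave 7 to 9 and 9. The interaction of cerebellum and neocortex (0) gave 2 with library weights and 0 to 1 with a library left out, that of hippocampus and cerebellum 1 with library weights and otherwise 0. The number of all genes called also varied with the setting, so these counts are not a result about the 10 genes alone. In cerebellum the main fit called 180 genes higher and 186 lower of 14624. Library weights called 5769 of 14624 there. Without cerebellum LLC replicate 2 the fit called 17 of 14616, and without LLC replicate 4 it called 1570 of 14619. In hippocampus library weights called 1180 of 14650.

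Among the 1049 values, signs changed only for differences that did not pass, apart from Igfbp5 between control cerebellum and neocortex, -0.0064 with median-ratio scaling. Igf2 in cerebellum gave 0.0070 with median-ratio scaling and 0.078 with library weights, and Igf1 in hippocampus 0.022 with library weights. Left-out libraries gave -0.0937 to 0.0189 for Igfbp6 in neocortex, in cerebellum -0.106 to 0.0230 for Igf2, -0.0790 to 0.107 for Igfbp5 and -0.0155 to 0.108 for Insr, and in hippocampus -0.201 to 0.0138 for Igfbp5, -0.319 to 0.356 for Igf2 and -0.0636 to 0.0608 for Igf1. The cause was not tested. With a filter at 5 TPM Igf1 gave no value. Apart from the region average, which joins the 3 libraries of a title number, replicate numbers entered only the fits with a block. Deviations of same-numbered libraries correlated at -0.256 to 0.470 by description number (5 of 12 pairs over 0.1) and -0.0956 to 0.625 by title number (16 of 24 over 0.1). TPM gives no read depth, so the counting error of low values such as those of Igf1 is not known.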
